A study of Mus musculus with 4 samples.

Results

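The cytokine receptor genes described here were 8 named genes: *Il2ra*, *Il2rb*, *Il2rg*, *Il7r*, *Il4ra*, *Il9r*, *Il17rb* and *Crlf2*. They were looked up in a pair of deposited marker tables, which together held 3488 genes. A row of either table, called an entry here, names a gene with a higher average in that cluster than outside it. Where a gene has no row, it may have been lower, alike, seldom detected or left untested, and these cannot be told apart. Of the 8 genes, 6 had an entry in at least 1 table and 3 (*Il2ra*, *Il2rb* and *Il17rb*) had entries in both. *Il4ra* and *Crlf2* had no entry.

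The sort was for group 2 innate lymphoid cells (ILC2s), which lack antigen receptors and secrete cytokines of the type 2 response. The types named ILC2 and ILC2_2 made up 45.0% of the sorted cells in the cell type table, and the others were named as T cells, NK cells, macrophages and further types. Cells were taken by flow cytometry from liver and lung of male BALB/c mice, 8 weeks old and wild type, after intraperitoneal injections on 5 days of PBS (control) or 0.5 µg recombinant IL-33 (rIL-33). There were 4 droplet-based single-cell libraries of transcript 3' ends, 1 each for PBS liver, PBS lung, rIL-33 liver and rIL-33 lung, and the tissue of several mice was pooled in each. The gate kept lineage-negative, CD127+Thy1+ST2+ cells. CD127 is the protein of *Il7r* and ST2 that of *Il1rl1*, so both were used to choose the cells. Both tables pool the 4 libraries, so organ and treatment were not compared here, no value has a replicate, and they give neither depth nor cell numbers. No interval was put on a share of cells, and no test was run, since the clusters were made from the same cells.

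Cytokines of the common gamma chain family signal through receptor complexes that share the chain encoded by *Il2rg*. The IL-2 receptor adds the alpha chain CD25 (*Il2ra*), which raises affinity, and the beta chain CD122 (*Il2rb*), which is also part of the IL-15 receptor. *Il7r*, *Il4ra* and *Il9r* encode the cytokine-specific chains for IL-7, IL-4 and IL-9. The receptor of TSLP pairs the IL-7 receptor alpha chain with the chain encoded by *Crlf2*, and *Il17rb* encodes the IL-25-binding chain of a receptor of the IL-17 family. In ILC2s, IL-7 supports maintenance, IL-2 and IL-9 support survival and growth, and TSLP and IL-25 act beside IL-33 as activating signals.

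All 8 genes are annotated as protein-coding in GENCODE M21 (GRCm38, the build that mm10 denotes). *Il2ra* lies on chromosome 2 (11642807 to 11693193, plus strand) and *Il2rb* on chromosome 15 (78479256 to 78495271, minus strand). *Il2rg* lies on chromosome X (101264378 to 101268255, minus strand), and *Il7r*, like *Il2rb*, on chromosome 15 (9505788 to 9530176, minus strand). *Il4ra* is at 125552120 to 125579474 of chromosome 7 on the plus strand, and *Il9r* is at 32187541 to 32200279 of chromosome 11 on the minus strand. *Il17rb* is at 29996135 to 30008896 of chromosome 14 and *Crlf2* at 109554709 to 109558993 of chromosome 5, both on the minus strand. The 8 genes therefore lie on 7 chromosomes.

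The 250 bases before the RefSeq start site (GRCm38.p6) are shown for the 3 genes entered together for ILC2 subcluster 0 (*Il2ra*, *Il2rg* and *Il9r*) and for *Il17rb*, the gene with the most subcluster entries. Each is written 5′ to 3′ on the strand of its gene. Capitals mark a match on either strand to GATAA (the core bound by GATA factors), TTCNNNGAA (STAT factors) or TGANTCA (AP-1 factors).

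Il2ra, chr2:11642542-11642791, plus strand: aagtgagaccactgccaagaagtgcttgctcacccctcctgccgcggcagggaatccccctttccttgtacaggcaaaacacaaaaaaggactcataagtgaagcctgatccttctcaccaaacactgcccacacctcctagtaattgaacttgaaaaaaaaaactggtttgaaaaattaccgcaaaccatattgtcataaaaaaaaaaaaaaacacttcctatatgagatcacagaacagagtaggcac

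Il2rg, chrX:101268256-101268505, minus strand: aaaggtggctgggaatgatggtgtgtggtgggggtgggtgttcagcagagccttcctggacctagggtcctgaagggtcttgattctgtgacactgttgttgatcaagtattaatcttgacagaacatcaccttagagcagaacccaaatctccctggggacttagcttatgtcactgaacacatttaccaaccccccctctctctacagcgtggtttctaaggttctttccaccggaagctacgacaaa

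Il9r, chr11:32200280-32200529, minus strand: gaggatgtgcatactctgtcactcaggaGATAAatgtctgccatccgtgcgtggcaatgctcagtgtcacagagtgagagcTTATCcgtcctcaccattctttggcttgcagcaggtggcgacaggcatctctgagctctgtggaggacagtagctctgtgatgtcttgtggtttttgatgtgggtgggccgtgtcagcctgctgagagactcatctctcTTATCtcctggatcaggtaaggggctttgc

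Il17rb, chr14:30008897-30009146, minus strand: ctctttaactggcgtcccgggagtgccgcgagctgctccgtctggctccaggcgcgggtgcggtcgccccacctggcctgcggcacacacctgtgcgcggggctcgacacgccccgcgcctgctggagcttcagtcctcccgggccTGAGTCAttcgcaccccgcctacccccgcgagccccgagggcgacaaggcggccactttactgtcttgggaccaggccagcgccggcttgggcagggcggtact

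A window was found for 7 of the 8 genes. GATAA matched 1 of these, *Il9r*, with matches that begin 222, 169 and 30 bases before the start site. TTCNNNGAA matched 1 (*Il7r*, 142 bases before the start site), and TGANTCA matched 1 (*Il17rb*, 104 bases before it). Among all 32851 windows of this length, 22.6% held GATAA, 7.02% held TTCNNNGAA and 6.75% held TGANTCA. A match is a string of letters and shows no binding, and the windows of *Il2ra* and *Il2rg* held none of these letters in these orders.

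To ask how the receptors are spread within ILC2s, the subcluster table was read first. It held 10 subclusters, numbered 0 to 9, of the cells the authors kept as ILC2s, and 12 entries of 6 of the 8 genes: *Il17rb* in 4 subclusters, *Il2ra*, *Il2rb* and *Il2rg* in 2 each, and *Il7r* and *Il9r* in 1 each. For comparison, 2629 genes had an entry for at least 1 subcluster, which is 18.3% of the 14354 features over which the deposited p-values were adjusted. The 8 genes were chosen with earlier results of these data known, and nothing is read from that excess. Subclusters 1, 7 and 8 had no entry for any of the 8 genes. The median difference between the share of cells in the subcluster and in all other ILC2s was 6.20 percentage points over the 12 entries, against 13.3 over all 3745 entries of the table.

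**Figure D1:**
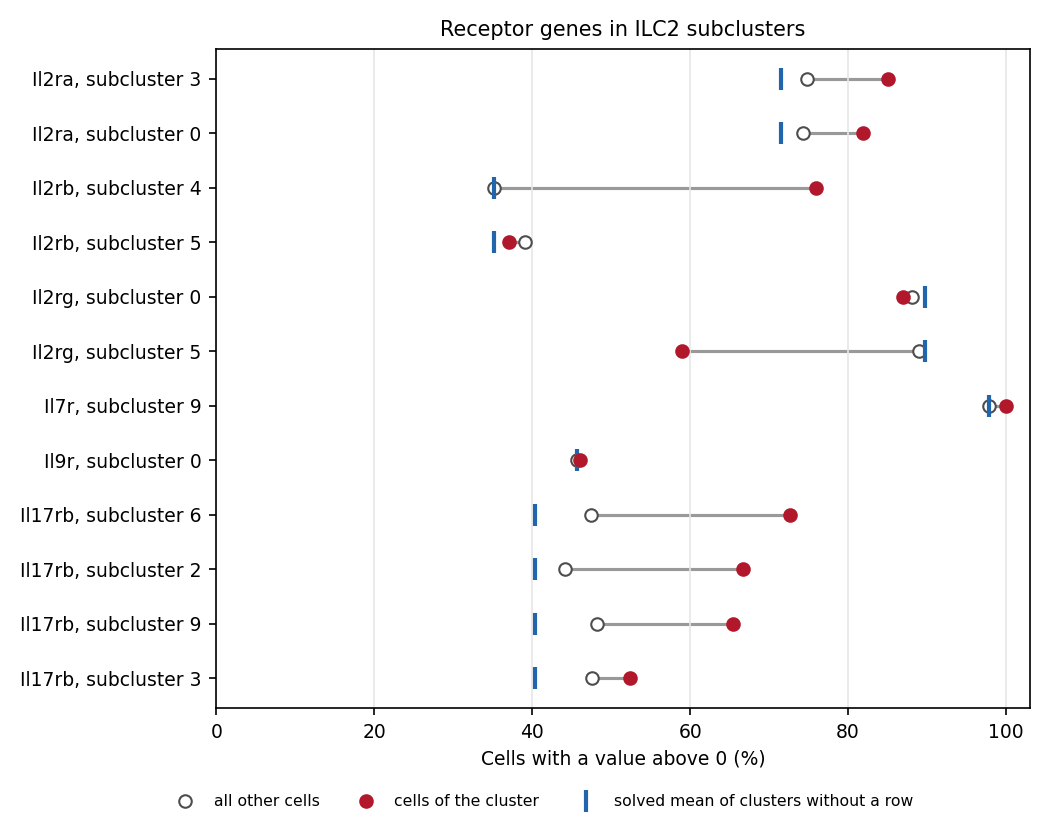
For each entry of a receptor gene in the ILC2 subcluster table, the horizontal axis gives the percentage of cells with a value above 0. Red points are the cells of the subcluster, open points all other ILC2s, and blue ticks the solved mean of the subclusters without an entry for that gene. *Il2rb* in subcluster 4 shows the widest gap upward (75.9% against 35.2%) and *Il2rg* in subcluster 5 the widest gap downward (59.0% against 89.0%).

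The receptors were found in very different shares of ILC2s. The share of all ILC2s with a gene can be solved from an entry, because it equals the share in the other cells plus the subcluster's size times the difference of the shares. *Il7r* was found in 97.8% of all ILC2s, *Il2rg* in 87.8%, *Il2ra* in 76.4%, *Il17rb* in 48.3%, *Il9r* in 45.8% and *Il2rb* in 39.0%. The entries of 1 gene gave nearly the same number, for example 48.3051% to 48.3416% over the 4 entries of *Il17rb* and 38.9577% to 39.0225% over the 2 of *Il2rb*. The sizes were fitted to bring the entries of each gene together, so this closeness is no separate check. Over all 2629 genes of the table the median solved share was 40.7%, and from the highest share down *Il7r* ranked 21 and *Il2rg* ranked 150. *Il2rb* was below that median. These shares also depend on how readily each transcript is captured, so their order is not an order of receptor amount.

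*Il2ra*, the IL-2 receptor alpha chain, was entered for subclusters 0 and 3. It was detected in 85.1% of subcluster 3 cells, compared with 74.8% of other ILC2s, a difference of 10.3 percentage points. In subcluster 0 it was found in 81.9% against 74.3%, a difference of 7.60 points. The other 8 subclusters had a solved mean of 71.5%, so *Il2ra* was present in most cells on either side. Subclusters 0 and 3 held 42.3% of the ILC2s and 46.0% of the ILC2s with *Il2ra*. Of these entries only that of subcluster 3 had a deposited log2 fold change of at least 0.5. *Il1rl1*, the IL-33 receptor of the gate, had entries for the same 2 subclusters (96.2% against 86.6% in subcluster 0, 97.0% against 87.8% in subcluster 3).

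*Il2rb*, the shared beta chain of the IL-2 and IL-15 receptors, had the largest difference in share of the 12 entries. In subcluster 4 it was detected in 75.9% of cells, compared with 35.2% of other ILC2s, 2.16 times the share. Of 802 genes entered for subcluster 4, it ranked 130 by the size of this difference of 40.7 points. Subcluster 4 held 9.23% of the ILC2s and 18.0% of the ILC2s with *Il2rb*. All 4 proliferation markers had an entry for it: *Stmn1* was found in 77.2% of its cells against 9.80%, *Pclaf* in 49.8% against 5.00%, *Top2a* in 71.5% against 26.2% and *Mki67* in 54.7% against 15.0%. *Nkg7* (30.5% against 11.7%) and *Gzma* (25.8% against 9.70%), markers of cytotoxic cells, were entered for it too, while the other 5 genes of that list (*Ncr1*, *Klrb1c*, *Eomes*, *Tbx21* and *Prf1*) were entered for no subcluster. *Ctla4*, of the regulatory T cell list, was found in 61.3% of subcluster 4 against 31.0%. The part of cells with any of these marker genes in the *Il2rb* difference was not tested.

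*Il2rb* was also entered for subcluster 5, but there it was found in a smaller share of cells, 37.1% against 39.1%. *Il2rg*, the common gamma chain, was entered for subcluster 5 as well, in 59.0% of cells against 89.0%, a difference of -30.0 points. In such entries fewer cells carried the gene although its deposited average was higher. This held for 978 of the 1000 entries of subcluster 5 (97.8%), against 1102 of all 3745 entries (29.4%). The same subcluster had entries for the T cell genes *Cd3e* (32.0% against 4.70%) and *Cd3g* (39.5% against 32.6%). It also had the gamma delta T cell gene *Trdc* (25.6% against 7.0%) and the cytotoxic marker *Nkg7* (26.3% against 12.9%). The gate had removed cells with CD3e or TCRb protein, and the authors left out *Cd3*-expressing cells before subclustering. The part of these genes' cells in the receptor entries was not tested. The subclusters without an entry for *Il2rg* had a solved mean of 89.8% and those without one for *Il2rb* a solved mean of 35.2%. With only entries whose share was higher in the subcluster, *Il2rg* had 0 entries and *Il2rb* kept 1, that of subcluster 4.

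Subcluster 0, the largest at 27.3% of the ILC2s, had 3 of the 8 genes, against 300 of 14354 features (2.09%). Besides *Il2ra* these were *Il2rg* and *Il9r*, and their shares there were close to those of the other ILC2s: *Il2rg* was found in 87.0% of cells against 88.1%, and *Il9r*, the IL-9 receptor chain, in 46.0% against 45.7%. Both entries had a deposited log2 fold change under 0.5. *Il2ra*, *Il2rg* and *Il9r* were thus entered together, but *Il2ra* alone had a difference in share above 1 percentage point in the upward direction.

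*Il17rb*, the IL-25 receptor chain, had the widest spread of entries. Its share was 72.7% in subcluster 6 and 47.4% in other ILC2s, and it was found in 66.7% of subcluster 2 against 44.2%. In subcluster 9 it was found in 65.4% against 48.2%, and in subcluster 3 in 52.4% against 47.6%. The difference of 25.3 points ranked 9 of 190 genes in subcluster 6 and that of 22.5 points ranked 10 of 131 in subcluster 2, so there *Il17rb* was among the genes with the largest differences in share. In subcluster 3 it ranked 144 of 237. Subcluster 6 also had entries for *Top2a* (49.0% against 29.6%) but for none of the other 3 proliferation markers. Of the T cell list it had *Cd3g* (46.1% against 32.4%) and *Trbc2* (88.0% against 81.5%). Of the gamma delta T cell list it had *Tcrg-C1* (40.1% against 25.5%) and *Tcrg-C4* (64.7% against 52.4%). Of the regulatory T cell list it had *Ctla4* (55.6% against 33.0%). Subcluster 2 had *Trbc2* (87.2% against 80.6%), *Tcrg-C4* (63.3% against 50.5%) and *Ctla4* (55.4% against 28.9%). The paper reported *Cd3g* and *Tcrg-C1* in ILC2s as very low beside other cells. Each of these T cell and regulatory T cell genes was also entered for a subcluster without an *Il17rb* entry. These were subclusters 1, 4 and 8 for *Ctla4*, 1 for *Trbc2*, 5 for *Cd3g*, and 7 for *Tcrg-C1* and *Tcrg-C4*. The part of these genes' cells in the *Il17rb* differences was not tested. The 6 subclusters without an entry had a solved mean of 40.3%. The 4 subclusters together held 37.6% of the ILC2s and 47.9% of those with *Il17rb*, and subcluster 2 alone held 25.3% of them. The entry for subcluster 9 did not pass an adjusted p threshold of 0.05, and it was the only one of the 4 with a deposited log2 fold change of at least 0.5.

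*Il7r*, the IL-7 receptor alpha chain and the sort marker CD127, was entered for subcluster 9 alone. It was found in 100% of its cells against 97.8% of the other ILC2s, and this entry did not pass an adjusted p threshold of 0.05 either. Subcluster 9 held 0.611% of the ILC2s, so the value rests on few cells. A difference of 2.20 points ranked 195 of its 199 genes. Subcluster 9 thus had 2 of the 8 genes, *Il7r* and *Il17rb*, against 199 of 14354 features (1.39%), and neither entry passed that threshold. Subcluster 3 had 2, *Il2ra* and *Il17rb*, against 237 features (1.65%), and subcluster 5 had 2, *Il2rb* and *Il2rg*, against 1000 features (6.97%).

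**Figure D2:**
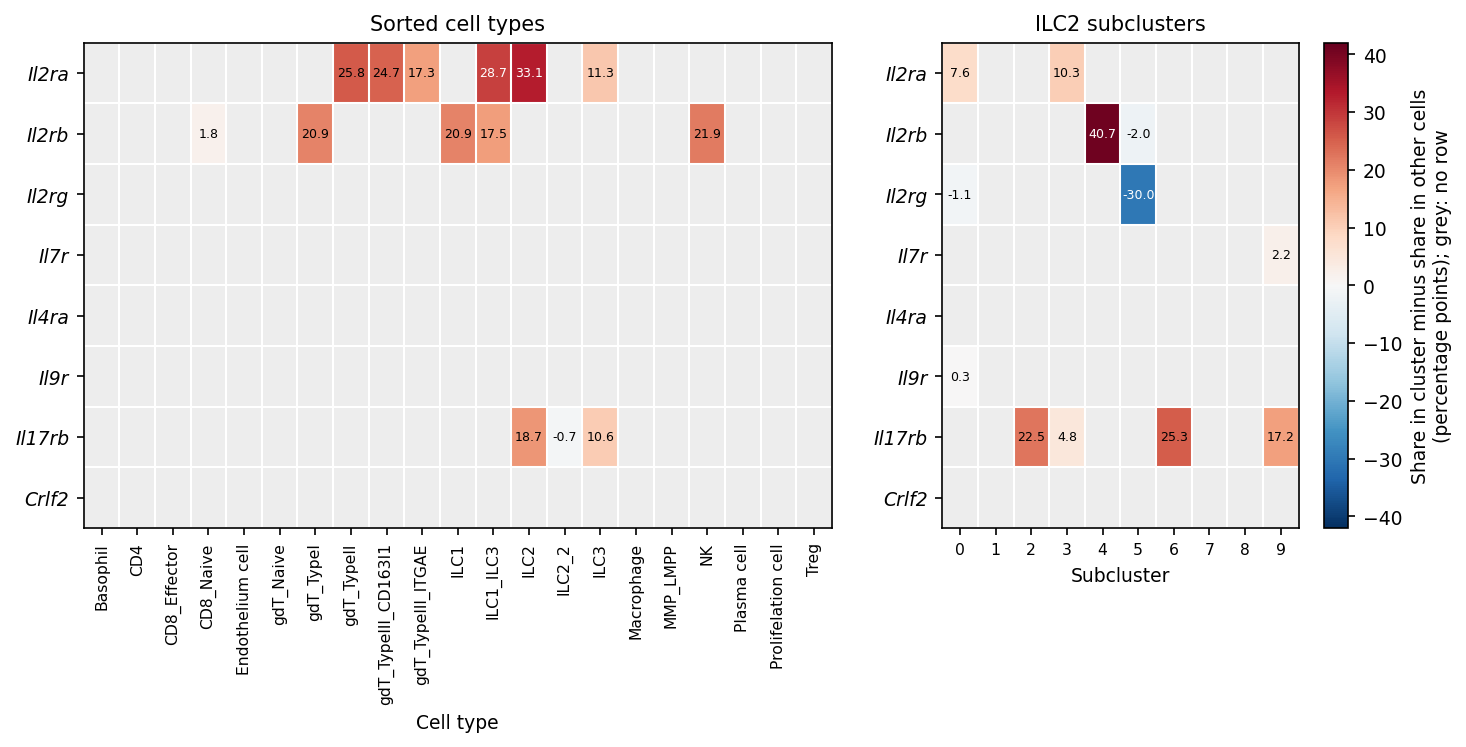
Share of cells in the cluster minus share in all other cells, in percentage points, for each receptor gene (vertical) and each cell type or ILC2 subcluster (horizontal); red is higher in the cluster, blue lower, and grey squares have no entry. *Il17rb* has the most coloured squares among the subclusters (4) and *Il2ra* among the cell types (6), and *Il4ra* and *Crlf2* have none.

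To name the genes with the most similar entries, the Jaccard index of the sets of subclusters was taken (shared subclusters over all subclusters of either gene), with ties ordered by the mean absolute gap between the differences in share. For *Il2ra*, 43 genes had exactly its 2 subclusters, and the nearest were *Wls* (gap of 1.5 points), *Il1rl1* (1.55) and *Ahcyl2* (2.80). For *Il2rb*, 18 genes had exactly its 2 subclusters, and the nearest were *Hsph1* (8.85), *Mphosph10* (10.6) and *Rif1* (10.9). For *Il2rg*, 55 genes did, led by *Rcsd1* and *Zranb2* (1.1 each) and *Pnn* (1.3). No gene had exactly the 4 subclusters of *Il17rb*; *Plin2* and *Rgs10* shared 3 of them, a Jaccard index of 0.750.

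The cell type table, which compared 21 named cell types among all sorted cells, held 14 entries of 3 of the 8 genes: 6 of *Il2ra*, 5 of *Il2rb* and 3 of *Il17rb*. It was adjusted over 2000 features, of which 1679 (84.0%) had an entry for at least 1 type, so an entry for a type is common there. *Il2rg*, *Il7r*, *Il4ra*, *Il9r* and *Crlf2* may not have been among the 2000, and the missing entries say nothing about these 5 genes. The shares of this table are on another scale than those of the subcluster table. The solved share for *Il2rb* was 78.2% over the sorted cells, against 39.0% over the ILC2s in the subcluster table. If ILC2 and ILC2_2, 45.0% of the sorted cells, had 39.0%, the remaining types without an *Il2rb* entry would need 121%. *Foxp3*, the regulatory T cell factor, had a value above 0 in 41.5% of the cells outside Treg. What kind of value the table was made from is not given in the sources used here, and it may have been scaled or integrated. A value above 0 there need not be a detected transcript, so its shares are read only against each other.

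**Figure D3:**
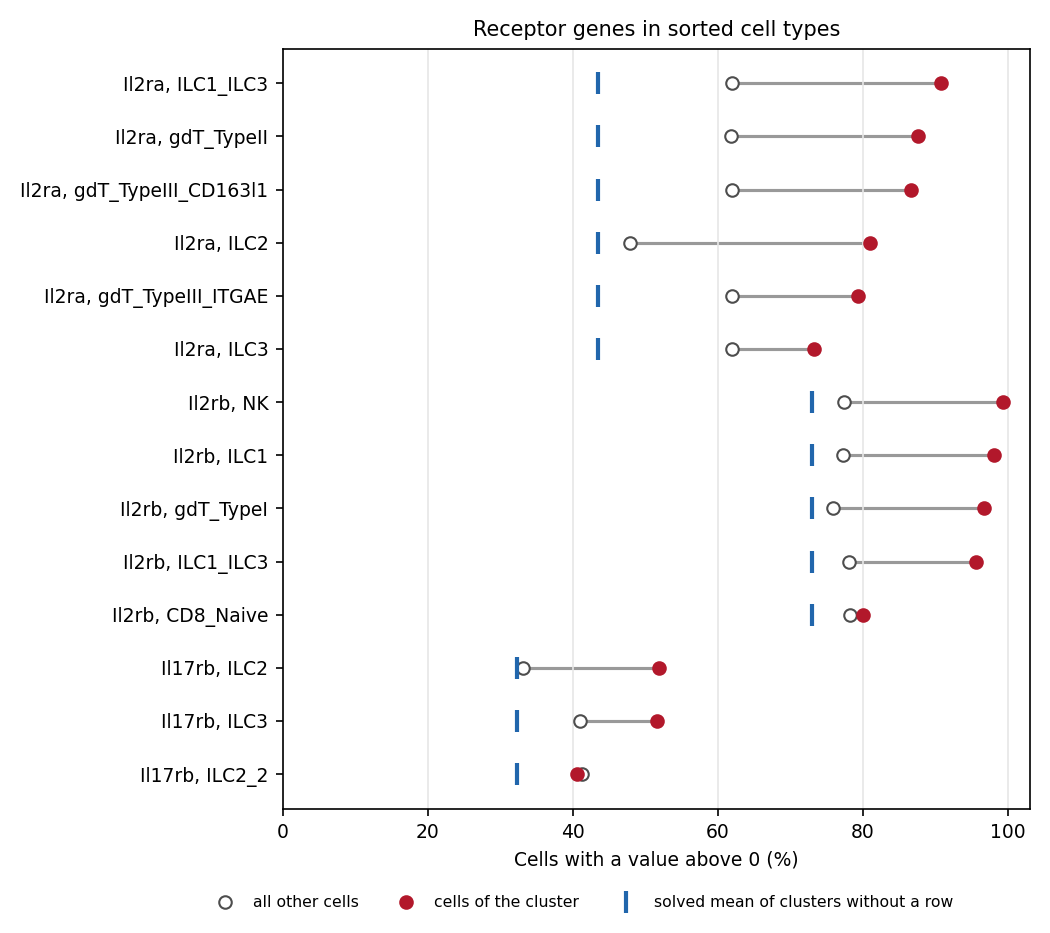
For each entry of a receptor gene in the cell type table, the horizontal axis gives the percentage of cells with a value above 0. Red points are the cells of the named type, open points all other sorted cells, and blue ticks the solved mean of the types without an entry for that gene. *Il2rb* reached 99.3% in NK, and *Il2ra* stood above 70% in its 6 types.

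*Il2ra* was entered for 6 cell types. It had a value above 0 in 90.7% of ILC1_ILC3 against 62.0% of all other cells, in 87.6% of gdT_TypeII against 61.8% and in 86.6% of gdT_TypeIII_CD163l1 against 61.9%. For ILC2 it was 81.0% against 47.9%, for gdT_TypeIII_ITGAE 79.3% against 62.0%, and for ILC3 73.3% against 62.0%. The gap for ILC2, 33.1 points, was the largest of the 14 entries, and ranked 24 of the 136 genes of that type. ILC2 held 43.2% of the sorted cells and is among the other cells of every other type, so gaps are not comparable between types. By share, ILC1_ILC3, gdT_TypeII and gdT_TypeIII_CD163l1 stood above ILC2. The entries for ILC3, gdT_TypeII and gdT_TypeIII_ITGAE had a deposited log2 fold change under 0.5. The 15 types without an entry had a solved mean of 43.4%, and among these was Treg, although that type had entries for *Foxp3* (71.9% against 41.5%) and *Ctla4* (91.6% against 48.7%).

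*Il2rb* was entered for NK, ILC1, gdT_TypeI, ILC1_ILC3 and CD8_Naive. It had a value above 0 in 99.3% of NK against 77.4% of other cells, in 98.1% of ILC1 against 77.2%, in 96.7% of gdT_TypeI against 75.8% and in 95.6% of ILC1_ILC3 against 78.1%. For CD8_Naive the shares were 80.0% and 78.2%. In gdT_TypeI, a gamma delta T cell type with 11.7% of the sorted cells, the difference of 20.9 points ranked 2 of 145 genes. NK carried entries for all 7 genes of the list for NK cells and ILC1s, among them *Ncr1* (99.3% against 62.5%) and *Eomes* (86.7% against 64.0%). The entry of *Tbx21* came with a slightly lower share (51.1% against 51.8%). The types without an entry had a solved mean of 72.9%, and the type labelled Prolifelation cell was among them.

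*Il17rb* had a value above 0 in 51.8% of ILC2 against 33.1% of other cells, and in 51.6% of ILC3 against 41.0%. In ILC2_2, a smaller cell type, the share was 40.5% against 41.2%, so its entry came with no higher share. In ILC2_2, 106 of 200 entries (53.0%) had a share below that of the other cells. ILC2 and ILC3 each had 2 of the 8 genes, *Il2ra* and *Il17rb*, against 136 (6.80%) and 153 (7.65%) of 2000 features. ILC1_ILC3 had 2 as well, *Il2ra* and *Il2rb*, against 225 features (11.2%). All 9 genes of the ILC2 list had an entry for the type named ILC2, led by *Il1rl1* (90.2% against 47.7%) and *Gata3* (93.0% against 60.2%). The difference was smallest for *Areg* (45.2% against 43.1%). The authors named the types by hand from cluster markers, so these entries are no independent check of the label. The type named ILC3 had entries for 5 of the 8 T cell genes, although the gate removed cells with CD3e protein. These were *Cd3g* (97.1% against 85.3%), *Cd3e* (91.4% against 83.3%), *Trbc2* (97.7% against 91.3%), *Trac* (74.3% against 71.0%) and, with a lower share, *Cd3d* (81.9% against 83.6%). The type named gdT_TypeII had entries for *Il1rl1* (95.3% against 65.6%), *Gata3* (97.6% against 74.0%), *Hs3st1* and *Areg* of the ILC2 list and for none of the T cell or gamma delta T cell genes, among 28 entries. Of the ILC3 genes, *Il22* and *Il23r* had no entry for any type.

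The genes around these receptors were read from 4 lists of 38 genes, of which 18 had an entry in the subcluster table and 14 in the cell type table. Over all features these shares were 18.3% and 84.0%, but the deposited tables do not show which of the 38 genes were among the 2000 features of the cell type table, and nothing is read from the counts. Among other receptor chains, 3 of 7 had an entry in each table. *Il17ra*, the partner of *Il17rb*, was entered for subcluster 1 (52.9% against 30.1%) and for subcluster 5 (15.4% against 35.4%). *Il18r1* was entered for subclusters 1, 5, 7 and 8, at most in 40.4% of cells against 21.8% in subcluster 8, an entry that did not pass an adjusted p threshold of 0.05, and *Il13ra1*, *Il21r* and *Il15ra* had no entry in the subcluster table. Of 10 ligands, 2 had entries there and 3 in the cell type table. *Il13*, which encodes a type 2 cytokine, had the most subclusters of the 38 genes (1, 2, 4, 7 and 8), with shares from 52.8% against 33.0% in subcluster 1 to 69.7% against 36.8% in subcluster 8, and *Il4* was found in 41.5% of subcluster 7 against 22.3%. In the cell type table, *Il2* was entered for ILC2 (80.2% against 49.6%), for ILC1_ILC3 (64.5% against 62.8%, not past an adjusted p of 0.05) and, with a lower share, for CD4 (29.4% against 63.9%). *Il4* was entered for Basophil, in 75.2% against 27.5%.

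Of 11 kinases, STATs and adapters, 5 had an entry in the subcluster table and 1 in the cell type table, and *Jak1* and *Jak3*, the kinases that bind the cytokine-specific chains and the common gamma chain, had none. *Stat5a* and *Stat5b*, which carry the signal of most of these receptors, were entered for subcluster 5 with lower shares (9.20% against 26.5% and 10.8% against 28.3%). *Stat3* was found in 83.6% of subcluster 1 against 67.4%, and its entry for subcluster 8 (86.5% against 70.6%) did not pass an adjusted p of 0.05. *Jak2* was entered for subcluster 3 (56.1% against 50.7%), and for subcluster 8 (64.0% against 51.4%) without passing it. *Stat6*, which follows *Il4ra*, had no entry in either table.

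Of 10 genes listed as targets or feedback of cytokine signals, 8 had an entry in the subcluster table and 7 in the cell type table, where an entry was common. *Bcl2*, a survival factor, was found in 77.3% of subcluster 0 against 71.0%, and it was entered for subcluster 5 with a lower share (64.9% against 73.0%). *Cish*, a feedback inhibitor that STAT5 switches on, was entered for subcluster 0 too, but in 57.5% of cells against 61.1%. *Socs1* was found in 35.9% of subcluster 0 against 30.6%, in 50.5% of subcluster 7 against 31.8% and in 15.3% of subcluster 5 against 32.7%. *Socs3* was found in 30.0% of subcluster 7 against 10.4%, and *Pim1*, a kinase gene with 4 subclusters, in 96.9% of subcluster 1 against 81.9%, in 88.6% of subcluster 3 against 84.3% and 97.8% of subcluster 8 against 84.8%, but in 48.3% of subcluster 5 against 86.4%. In the cell type table *Cish* was entered for 5 types, ILC1_ILC3 (90.2% against 62.8%), gdT_TypeIII_CD163l1 (84.3% against 62.6%), ILC3 (81.3% against 62.6%), ILC2 (77.2% against 52.0%) and ILC2_2 (72.9% against 62.7%).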

How the data were processed

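For the 3' libraries the authors used Cell Ranger with mm10. They dropped cells with few genes, divided counts by each cell's total, took logs and clustered with Seurat. Their methods name flow cytometry as the step against doublets and no software for it. The cell type table may hold values of variable genes only, and its kind of value is not given in the sources used here. The deposited tables are the authors' FindAllMarkers output. Fractions of cells with a value above 0, within a cluster and outside it, were deposited to 3 decimals and are printed as percentages. The deposited log2 fold changes and p-values are the authors' own comparisons, from a test over cells not named in the sources used here; their values are not given, and they served only to filter entries in alternatives and to find the number of features (2000 and 14354). Neither table had a negative log2 fold change, and the smallest was 0.25 in both.

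Cluster sizes were fitted here by least squares (numpy 2.4.6, pandas 2.3.3, Python 3.11.15) over 1045 and 768 genes with entries for at least 2 clusters. Tested on simulated data with the same entries, the largest error of a receptor's share was 0.00877 percentage points for the cell type table and 0.0354 for the subcluster table, and that of a mean over clusters without an entry was 0.0182 and 0.0432. The means were obtained by subtracting the cells of the entered clusters from all cells. Alternatives were a log2 fold change of at least 0.5, an adjusted p under 0.05, only entries with the higher share in the cluster, and 4 other fits of sizes. The named genes were the 8 receptors, the genes of the 4 lists with the most subclusters (*Il13*, *Il18r1*, *Pim1*) and the 3 most alike genes of each receptor with at least 2 subclusters. Other genes of these lists, and marker genes, were named after their values were seen. The receptors and lists were chosen with earlier results of these data known. No column of per-sample values was left aside (0). Values of some genes of the lists are not reported here. Protein sequences and coordinates from other builds were not used here.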

Additional observations from a re-analysis of the deposited data

How the results depend on the processing

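With a deposited log2 fold change of at least 0.5, the receptor entries went from 14 to 9 in the cell type table and from 12 to 5 in the ILC2 subcluster table, and the genes of the 4 surrounding lists with a subcluster entry from 18 to 7. This follows from the stricter threshold. *Il17rb* then kept 1 of 4 subclusters (9), *Il2ra* 1 of 2 (3) and *Il2rg* 1 of 2 (5), while *Il7r* and *Il9r* had 0, and *Il2ra* kept 3 of 6 cell types. With a higher share required, *Il2rb* kept 1 of 2 subclusters and *Il2rg* 0, and with an adjusted p under 0.05 *Il7r* had 0. Under these last 2 settings the total of receptor entries stayed within 1.5 times, from 9 to 10 in the subcluster table and from 13 to 14 in the cell type table. The 72 solved values under the 4 other fits of cluster sizes shifted by at most 0.0268 percentage points. The tables give no depth or cell numbers, and subclusters 8 and 9, the smallest, held 0.668% and 0.611% of the ILC2s. No paired analysis was possible because there was only 1 library a group and the tables hold no value per library.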
